A study of Mus musculus with 4 samples.

Results

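The heat shock chaperones described here are 10 genes, Hspa1a, Hspa1b, Hsph1, Dnajb1, Dnajb4, Hspb1, Hspa8, Hsp90aa1, Hspd1 and Bag3, of the 31253 gene rows counted in the series. They were chosen because their summed UMI counts (unique molecular identifiers, 1 per captured RNA molecule) were higher in the HFpEF than in the NC libraries across endothelial and other cell types, so their difference between the diets is given as a description, without a test. The design crosses diet with Scarb1 genotype, but the labels name only the diet, and 4 single-cardiac-endothelial-cell RNA-seq (scecRNA-seq) libraries were analysed, 2 from each diet. NC mice received chow with 10% of energy from fat and plain water, and HFpEF mice (heart failure with preserved ejection fraction) a diet with 60% of energy from fat plus 0.5 mg/ml of the nitric oxide synthase inhibitor L-NAME in the drinking water, for 20 weeks in the lineage-tracing mice of the study. All mice carried tamoxifen-inducible Cdh5-CreER, which is active in endothelial cells (ECs), the R26-stop-tdTomato reporter, and Scarb1 (SR-B1) alleles that were floxed on both chromosomes or on 1. Cells of the left ventricle were sorted for red fluorescence. Which library held which Scarb1 genotype is not given in the labels, and neither is the number of mice behind a library, so the spread between libraries of a diet may include genotype and may be technical. Scarb1 itself stood at 105 and 43.3 CPM (counts per 1000000 UMIs of the library) in NC libraries 1 and 2 and at 107 and 49.8 in HFpEF libraries 1 and 2, and no genotype was assigned from these levels.

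Heat shock proteins help other proteins fold, hold partly unfolded clients and hand badly damaged ones to degradation. HSP70 proteins bind short exposed stretches of a client in a cycle driven by ATP, J-proteins bring them clients and start the cycle, and nucleotide exchange factors release the client. The transcription factor HSF1 raises the inducible members after heat, oxidative or mechanical stress by binding heat shock elements, which are inverted repeats of the unit GAA near the start of transcription. In the heart, these proteins are best known for their rise after ischaemia and for holding the contractile and cytoskeletal proteins of stressed cells.

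After a filter on more than 200 detected genes and under 20% mitochondrial UMIs, 40154 of 41843 cells remained, with 10801149 to 47117650 UMIs per library. The HFpEF cells were shallower, with medians of 1737 and 1619 UMIs against 3754 and 4127 in NC, and the median mitochondrial share was 6.78%, 6.14%, 8.11% and 5.87% in NC libraries 1 and 2 and HFpEF libraries 1 and 2. Marker genes placed 89.3% of the cells (86.9% to 93.0% per library) in the EC gate, and the EC marker list summed to 4733 and 4984 CPM in NC and to 4224 and 4639 in HFpEF. Capillary markers summed to 8517 and 7800 CPM in NC against 6564 and 6368 in HFpEF. Artery ECs were 9.29% and 9.99% of cells against 4.47% and 5.19%, and ungated cells 3.34% and 2.93% against 7.92% and 7.81%. Vein ECs were 3.55% and 3.85% against 1.47% and 2.36%. Artery markers summed to 534 and 582 CPM in NC against 418 and 480 in HFpEF, and vein markers to 499 and 479 against 442 and 533. The artery and vein gates counted detected markers without scaling for depth, and the part of depth in the shares was not tested. The part of all these shifts in the diet differences was not tested either. The list of 4 erythroid genes summed to 397 and 395 CPM in NC against 863 and 2857 in HFpEF. Of 41676 barcode sequences, 166 occurred in more than 1 library.

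Hspa1a and Hspa1b encode the stress-inducible HSP70 proteins and lie side by side on chromosome 17, at chr17:34969190-34972156 and chr17:34956436-34959238 (GRCm38, minus strand), with 1 exon each in the GENCODE annotation. Their annotated transcripts share 1873 stretches of 31 bases, 63.8% of those of Hspa1a, whereas the last 500 bases of Hspa1a share 0 of 470 such stretches with Hspa1b. The libraries read the 3′ end, so molecules read within that end can be told apart. Reads from the shared stretches further inside cannot be told apart, and the split between these genes is uncertain. The RefSeq promoters of the pair (GRCm38.p6, from 250 bases before to 50 bases after the start) differed by 4 single-base changes in 300 bases. Promoter entries were found for 8 of the 10 genes, with 12 entries in all.

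The sequences below are shown because the genes with the widest diet difference and those with the densest heat shock elements are among them. Capitals mark each match to GAANNTTC or TTCNNGAA, the 2-unit forms of the element, which read the same on both strands. They are written 5′ to 3′ along the gene's own strand.
Hspa1a promoter, chr17:34972107-34972406, minus strand: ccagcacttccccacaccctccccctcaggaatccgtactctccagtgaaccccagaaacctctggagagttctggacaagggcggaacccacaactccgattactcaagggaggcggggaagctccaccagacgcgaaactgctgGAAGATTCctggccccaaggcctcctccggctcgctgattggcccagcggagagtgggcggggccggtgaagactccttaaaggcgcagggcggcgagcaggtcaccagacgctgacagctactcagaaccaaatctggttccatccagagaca
Hsph1 promoter, chr5:149636266-149636565, minus strand: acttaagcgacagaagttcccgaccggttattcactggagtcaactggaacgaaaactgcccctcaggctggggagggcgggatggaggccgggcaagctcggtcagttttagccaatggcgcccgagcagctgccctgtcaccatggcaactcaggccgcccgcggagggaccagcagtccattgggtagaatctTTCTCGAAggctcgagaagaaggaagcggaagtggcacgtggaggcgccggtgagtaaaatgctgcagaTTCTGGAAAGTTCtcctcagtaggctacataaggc
Hspd1 promoter, chr1:55087883-55088182, minus strand: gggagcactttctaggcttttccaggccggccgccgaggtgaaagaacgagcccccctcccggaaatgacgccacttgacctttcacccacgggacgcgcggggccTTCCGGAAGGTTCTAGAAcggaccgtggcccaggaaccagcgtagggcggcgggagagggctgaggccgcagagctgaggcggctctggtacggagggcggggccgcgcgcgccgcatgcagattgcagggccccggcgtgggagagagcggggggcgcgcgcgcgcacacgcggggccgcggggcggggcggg
Hspb1 promoter, chr5:135887669-135887968, plus strand: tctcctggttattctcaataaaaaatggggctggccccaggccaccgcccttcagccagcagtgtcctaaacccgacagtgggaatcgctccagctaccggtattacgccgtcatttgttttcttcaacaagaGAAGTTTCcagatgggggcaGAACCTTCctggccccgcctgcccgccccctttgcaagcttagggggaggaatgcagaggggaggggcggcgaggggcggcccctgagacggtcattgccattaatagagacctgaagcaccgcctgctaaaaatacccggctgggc
Dnajb4 promoter, chr3:152193796-152194095, minus strand: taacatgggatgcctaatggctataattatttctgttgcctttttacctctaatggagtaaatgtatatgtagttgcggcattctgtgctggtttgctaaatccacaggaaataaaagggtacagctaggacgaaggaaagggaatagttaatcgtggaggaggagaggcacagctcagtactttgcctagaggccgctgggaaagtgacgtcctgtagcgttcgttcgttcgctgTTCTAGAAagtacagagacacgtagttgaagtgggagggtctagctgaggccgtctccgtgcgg

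A 2-unit element was present in 8 of the 12 promoter entries, in 7 of the 8 genes, against 15.1% of all 32851 promoters of the same length. In Hspa1a, as in Hspa1b, it began 104 bases before the start, in Hspb1 there were matches 117 and 97 bases before it, and in Dnajb4 the match lay 14 bases before it. In Bag3 the match was 42 bases past the annotated start. Hspd1 held a run of 4 alternating units that began 144 bases before the start, and Hsph1 a run of 3 units that began 15 bases past the start of the entry shown. Such runs of at least 3 alternating units were in 3 of the 12 member entries, those of Hspd1 and 2 overlapping entries of Hsph1, against 0.603% of all promoters. The Hspd1 and Dnajb4 entries shown belong to starts inside the annotated genes, and the entries nearest the annotated 5′ ends (chr1:55088194-55088493 and chr3:152210034-152210333) held no match to either form. Neither of the 2 Dnajb1 entries held either form. Among the other chaperone genes and cofactors followed here, 52 genes had 65 entries, of which 14 (21.5%) held a 2-unit match, and among 12 entries of immediate early genes 1 (8.33%) did. The genes were chosen for their diet difference and some promoters are near copies, so these shares are a description, and a match is not evidence of binding.

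All 10 chaperones stood higher in both HFpEF libraries than in both NC libraries. All 10 also passed the filter on low counts, and 24.4% of the 13735 genes that passed it were arranged in this way. The 10 genes together took 1.27% and 0.883% of all UMIs in NC libraries 1 and 2 and 1.98% and 2.26% in HFpEF libraries 1 and 2. The median log2 fold over the 10 was 0.84, with a range of 0.41 to 1.95, and that over all genes was -0.00. Since this pattern chose the genes, nothing is read from it. The 3 with the widest difference were Hsph1 and the pair Hspa1a and Hspa1b, and over all cells the narrowest were Hspb1, Dnajb1 and Hspa8.

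**Figure D1:**
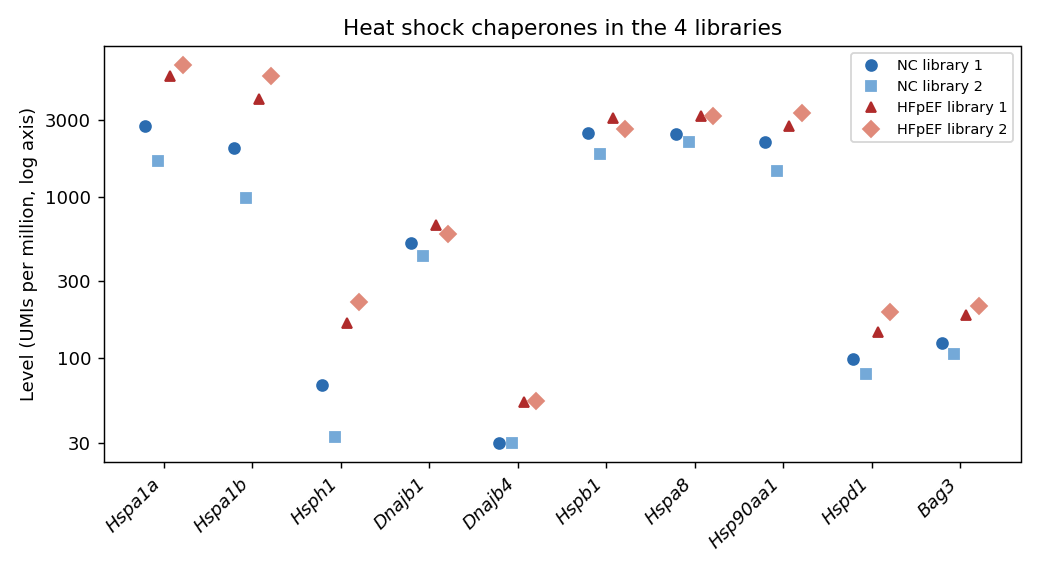
Level of each of the 10 heat shock chaperones (CPM, log axis) in the 4 libraries, with UMIs summed over all cells that passed the filter. Each point is 1 library, and both HFpEF points lie above both NC points for every gene, by the narrowest margin for Hspb1 (2629 in HFpEF library 2 against 2487 in NC library 1).

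Hspa1a stood at 2760.4 and 1676 CPM in NC libraries 1 and 2 and at 5573 and 6565 in HFpEF libraries 1 and 2. The diets did not overlap, and NC library 1 was 1.65-fold above NC library 2. The log2 fold was 1.46 ± 0.26 (SE, n = 2 libraries per diet). The SEs of the diet difference of the 10 genes come from the fit of the contrast that chose them. They are a description, and no precision or significance is read from them. Hspa1b stood at 2001 and 979 in NC and at 4028 and 5605 in HFpEF, a log2 fold of 1.70 ± 0.36. Its NC libraries differed by 2.04-fold from each other, which was more than the HFpEF libraries did (1.39-fold). The lowest HFpEF value was 2.01-fold above the highest NC value. The pair made up 37.4% and 30.1% of the 10 genes' UMIs in NC and 48.4% and 53.9% in HFpEF.

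Hspa8 encodes the constitutive member of the same family, HSC70, which also strips clathrin coats and serves protein import into lysosomes (chr9:40800984-40810087, plus strand). Its level was 2459.9 and 2181 CPM in NC and 3178 and 3175 in HFpEF, so the 2 HFpEF libraries were nearly equal and the log2 fold was 0.47 ± 0.12. Hsph1 encodes HSP110, a relative of HSP70 that acts as its nucleotide exchange factor (chr5:149614287-149636376, minus strand). It had 68.5 and 32.9 CPM in NC against 165 and 223 in HFpEF. With a log2 fold of 1.95 ± 0.35 it had the widest difference of the 10, and its NC libraries were also the furthest apart, by 2.08-fold.

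Among the partners of HSP70, Dnajb1 encodes the stress-inducible J-protein HSP40 (chr8:83608193-83612653, plus strand). It stood at 517 and 434 CPM in NC and at 672 and 587 in HFpEF, a log2 fold of 0.42 ± 0.14, and the nearest libraries of the 2 diets were 1.14-fold apart. Dnajb4, a related J-protein found at high levels in muscle (chr3:152178511-152210302, minus strand), was counted at 29.9 and 29.8 in NC and at 54.2 and 54.8 in HFpEF. Here the libraries of a diet were closest, and the log2 fold was 0.88 ± 0.09. Bag3 encodes a co-chaperone that exchanges the nucleotide of HSP70 and directs clients to autophagy (chr7:128523616-128546981, plus strand). Its 124 and 107 CPM in NC and 186 and 210.1 in HFpEF gave a log2 fold of 0.79 ± 0.12.

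The remaining 3 genes belong to other chaperone classes. Hsp90aa1 encodes the stress-inducible cytosolic HSP90, which matures kinases and steroid receptors and holds endothelial nitric oxide synthase (chr12:110690605-110702728, minus strand). Its level was 2194 and 1452 CPM in NC and 2751 and 3326 in HFpEF, with a log2 fold of 0.75 ± 0.22. Hspb1 encodes the small heat shock protein HSP27, which keeps unfolded proteins soluble and protects actin filaments (chr5:135887919-135889563, plus strand). It was at 2487 and 1855 in NC and at 3093 and 2629 in HFpEF, so that the nearest libraries were 1.06-fold apart, and its log2 fold was 0.41 ± 0.19, with 0.66 without NC library 1 and 0.19 without NC library 2. Hspd1 encodes HSP60, the chaperonin of the mitochondrial matrix (chr1:55077835-55088243, minus strand). It had 98.6 and 79.7 CPM in NC and 146 and 195 in HFpEF, a log2 fold of 0.95 ± 0.17. Without NC library 2 the log2 fold of Hsp90aa1 was 0.46 and that of Dnajb1 0.28. Without NC library 1 those of Hsph1 and Hspa1b were 2.59 and 2.33.

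The shallower HFpEF cells moved with the diet, so the levels were also taken over cells with 1000 to 2000 UMIs in every library, a window set after the data had been seen. The window held 527 of 4285 and 379 of 3959 capillary ECs in NC. In HFpEF it held 1898 of 3821 and 5694 of 13652. The NC cells in it were thus the shallow end of their libraries, so unlike cells were compared. In NC these capillary ECs held 107 and 59.0 chaperone UMIs per 10000, against 136 and 88.0 at 2000 to 4000 UMIs. In HFpEF they held 193 and 224 against 210 and 230. Over all cells of the window, Hspa1a stood at 2522 and 960.2 CPM in NC and at 5394 and 6537 in HFpEF. The median log2 fold of the 10 was 1.10. Dnajb1 had a log2 fold of 1.19 in these cells and Hspb1 one of 0.86, so the order of the genes with narrower differences depended on the cells used. Within every library, capillary ECs with fewer mitochondrial UMIs carried more chaperone UMIs. In NC library 1 the 10 genes summed to 140 per 10000 UMIs in cells under 5% mitochondrial and to 111 in cells of 10% to 20%, and in HFpEF library 2 to 244 and 202. In each of the 3 mitochondrial ranges the HFpEF libraries stood above the NC libraries. Without cells in which hemoglobin genes took 1% or more of the UMIs (294 of them in HFpEF library 2), the median log2 fold was again 0.84.

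In single capillary ECs the HFpEF libraries stood above the NC libraries from the lowest to the highest percentile read. Each cell with at least 1000 UMIs was thinned to 1000 UMIs, so that depth was equal, and the 10 genes were summed. Shallower cells were left out, more of them in HFpEF. This kept 4078 of 4285 and 3805 of 3959 capillary ECs in NC, and 3245 of 3821 and 10392 of 13652 in HFpEF. The shares below are of these kept cells. The median capillary EC held 10 and 7 chaperone UMIs in NC and 17 and 19 in HFpEF. Cells at the 10th percentile held 3 and 2 in NC against 5 and 6 in HFpEF, and those at the 90th percentile 27 and 19 against 39 and 44. A sum of 20 or more was reached by 20.4% (95% exact binomial interval 19.1% to 21.6%) and 8.94% (8.05% to 9.89%) of capillary ECs in NC. In HFpEF it was reached by 43.8% (42.1% to 45.5%) and 49.9% (49.0% to 50.9%), and these intervals cover counting error only. The tenth of cells richest in Hspa1a and Hspa1b held 42.4% and 47.5% of these UMIs in NC and 31% and 29.9% in HFpEF. The mean cell held 5.03 and 2.68 UMIs of this pair in NC and 9.70 and 12.2 in HFpEF. The part of these lower NC counts in the shares was not tested.

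**Figure D2:**
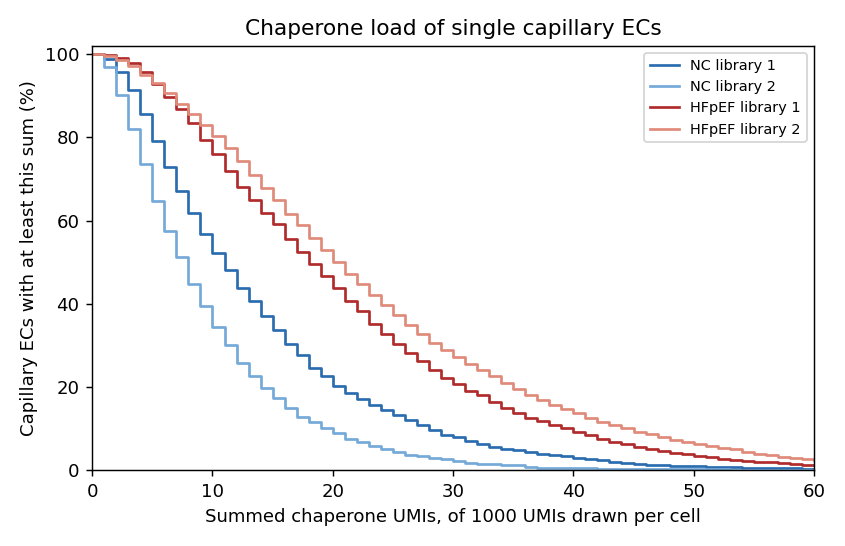
Percent of capillary ECs with at least 1000 UMIs (vertical axis) whose 10 chaperones sum to at least a given number of UMIs, of 1000 UMIs drawn per cell (horizontal axis), 1 line per library. At 20 UMIs the lines stand at 8.94% and 20.4% in NC and at 43.8% and 49.9% in HFpEF.

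At this depth Hspa1a was detected in 62.8% and 51.2% of capillary ECs in NC and in 86.6% and 88.6% in HFpEF. Before thinning, and over all capillary ECs including the shallower ones, the shares were 77.5%, 68.9%, 89.1% and 90.9%. Dnajb4 was detected in 2.72% and 2.50% of thinned NC cells and 4.47% and 4.25% of HFpEF cells. The thinned shares of cells with Hspb1, at 81.0% and 72.6% in NC and 86.0% and 81.6% in HFpEF, were close between NC library 1 and HFpEF library 2. Free RNA in the droplets can give a UMI to a cell that does not express the gene. In T and B cells, the share with Hspb1 was 17.9% of 56 thinned cells in HFpEF library 2 and 10.0% of 20 in NC library 2, and that with Hspa1a 42.9% and 25%.

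Across capillary ECs of 1 library, at equal depth, Hspa1a and Hspa1b varied together most, with a Pearson r of the log counts of 0.57 to 0.72 in the 4 libraries. Hspa1a with Hsp90aa1 followed at 0.44 to 0.52, and Hspa1a with Hspb1 at 0.31 to 0.36. Pairs with Dnajb4 or Hspd1 reached at most 0.15. Few cells held a UMI of these genes, but few also held one of Hsph1, which reached 0.25 with Hspa1b in HFpEF library 2. These values describe cells that share a library, and Hspa1a and Hspa1b may share reads.

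Among the 10 non-member genes most like the summed chaperones over gated ECs, by the lowest r of the 4 libraries, were Junb, Egr1, Jun, Fos, Atf3, Hsp90ab1, Zfp36, Klf4 and Ier3. Junb had an r of 0.46 to 0.53 and Egr1 of 0.38 to 0.53. Most of them belong to the immediate early genes, which are transcribed within minutes of a stimulus. Between the diets, the list of 14 immediate early genes had a median log2 fold of 0.02. In both HFpEF libraries 1 of the 14 stood above NC and 3 below, where 24.4% of all genes were above and 24.9% below. Junb stood at 4571 and 4705 CPM in NC and at 4417 and 4192 in HFpEF (log2 fold -0.09 ± 0.12), and Jun at 3611 and 3534 against 3870.4 and 3162 (-0.01 ± 0.14). The Jun values of the diets overlapped. The labels do not give how each library was digested and sorted. The part of this handling in the chaperone levels was not tested.

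Over all genes, edgeR's quasi-likelihood test of HFpEF against NC called 1 of 13735 genes at an adjusted p under 0.05 (0.00728%), and that gene was Cyp1a1, a target of the aryl hydrocarbon receptor, at 30 and 31.3 CPM in NC and 0.926 and 1.38 in HFpEF. At an unadjusted p under 0.05 stood 2179 genes (8.34% of all higher and 7.52% lower), and DESeq2 called 254 of 19963 (1.27%). The other genes of the chaperone system were read in 9 lists of 65 genes, all of them tested, and edgeR called none of the 65. At an unadjusted p under 0.05, 21 of them were higher and 3 lower, DESeq2 called 8, and 36 of the 65 stood above NC in both HFpEF libraries against 24.4% of all genes. The median log2 fold of the 65 was 0.21. The lists were chosen with earlier results of these data known. These shares, and those of each list below, are thus a description and not independent support.

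The HSP90 machine is made of HSP90 and the cochaperones that load and time it. Of its 9 genes, 7 were higher at an unadjusted edgeR p under 0.05, against 8.34% of all genes. Above NC in both HFpEF libraries stood 8, against 24.4% of all genes, and the median log2 fold was 0.46. Hsp90ab1, the constitutive HSP90, was at 2760 and 2118 CPM in NC and at 3199 and 3470 in HFpEF (log2 fold 0.46 ± 0.16, edgeR adjusted p = 0.27). Ptges3, the cochaperone p23, was at 162 and 152 against 239 and 290 (0.77 ± 0.12, edgeR adjusted p = 0.182). Neither passed the threshold in edgeR, and DESeq2 called 4 of the 9 genes of the list.

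Of the 7 J-proteins, 4 were higher at an unadjusted edgeR p under 0.05, against 8.34% of all genes, and none lower. Above NC in both HFpEF libraries stood 5, against 24.4% of all genes. Dnaja1, a farnesylated partner of HSC70, had 938 and 777 CPM in NC and 1344 and 1348 in HFpEF (log2 fold 0.66 ± 0.13), and Dnajb6 had 137 and 143 against 156 and 181 (0.28 ± 0.10). Of the 4 mitochondrial chaperones, 2 were higher at that p, against 8.34% of all genes. In both HFpEF libraries 2 of the 4 stood above NC and 1 below, against 24.4% and 24.9% of all genes. Hspe1, the HSP10 lid of the HSP60 chamber that Hspd1 encodes, had 140.3 and 113 CPM in NC and 231 and 311 in HFpEF (1.11 ± 0.18, edgeR adjusted p = 0.182). Grpel1, the exchange factor of mitochondrial HSP70, had 66.1 and 74.5 against 72.0 and 67.2, with overlapping diets.

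Of the 6 other HSP70 genes, 1 was higher and 1 lower at an unadjusted edgeR p under 0.05, against 8.34% and 7.52% of all genes. Above NC in both HFpEF libraries stood 4 and below 1, against 24.4% and 24.9% of all genes. The median log2 fold was 0.17. Hspa2 had 138 and 139.5 CPM in NC and 191 and 169.8 in HFpEF, whereas Hspa12b had 160.3 and 147 in NC and 118 and 112 in HFpEF. Their log2 folds were 0.39 ± 0.10 and -0.40 ± 0.10. The cytosolic chaperonin list of 8 genes had a median log2 fold of 0.20 with 1 gene at an unadjusted edgeR p under 0.05. The list had 7 of its 8 genes above NC in both HFpEF libraries, against 24.4% of all genes. Its examples were Cct7 (150 and 150 against 155 and 159 CPM) and Cct4 (134 and 126 against 149.8 and 148).

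Of 12 chaperones of the endoplasmic reticulum, 3 were higher at an unadjusted edgeR p under 0.05, against 8.34% of all genes. The median log2 fold was 0.20. Above NC in both HFpEF libraries stood 4 of the 12, against 24.4% of all genes. Hspa5, which encodes BiP, had 909 and 895 CPM in NC and 1147 and 1196 in HFpEF (0.39 ± 0.10), and Hsp90b1 had 378 and 316 against 352 and 457, with overlapping diets. The BAG and ubiquitin list was divided, with 4 of 10 genes above and 5 below NC in both HFpEF libraries. Of all genes, 24.4% were above and 24.9% below. In the list 2 genes were higher and 2 lower at an unadjusted edgeR p under 0.05, against 8.34% and 7.52% of all genes. Its median log2 fold was 0.02. Ubb had 3587 and 4070.5 CPM in NC and 4231 and 4109 in HFpEF. The 5 small heat shock proteins were low, with Cryab at 17.4 and 18.8 against 34.3 and 17.5 CPM and Hspb6 at 4.69 and 3.59 against 8.89 and 4.33, and none had an unadjusted p under 0.05. HFpEF library 1 alone was high for both, and the list of 4 cardiomyocyte markers summed to 83.5 CPM in that library against 22.3 to 32.1 in the others. The part of cardiomyocyte RNA in these values was not tested. Of the 4 heat shock factor genes, which include Hsf1 and the HSF1 regulator Ier5, the median log2 fold was -0.00. At an unadjusted edgeR p under 0.05, 1 was higher, against 8.34% of all genes. In both HFpEF libraries 1 of the 4 stood above NC and 1 below. Ier5 had 800.5 and 749 CPM in NC and 767 and 749 in HFpEF, and Hsbp1, a negative regulator of HSF1, had 173 and 164 against 137 and 147.

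**Figure D3:**
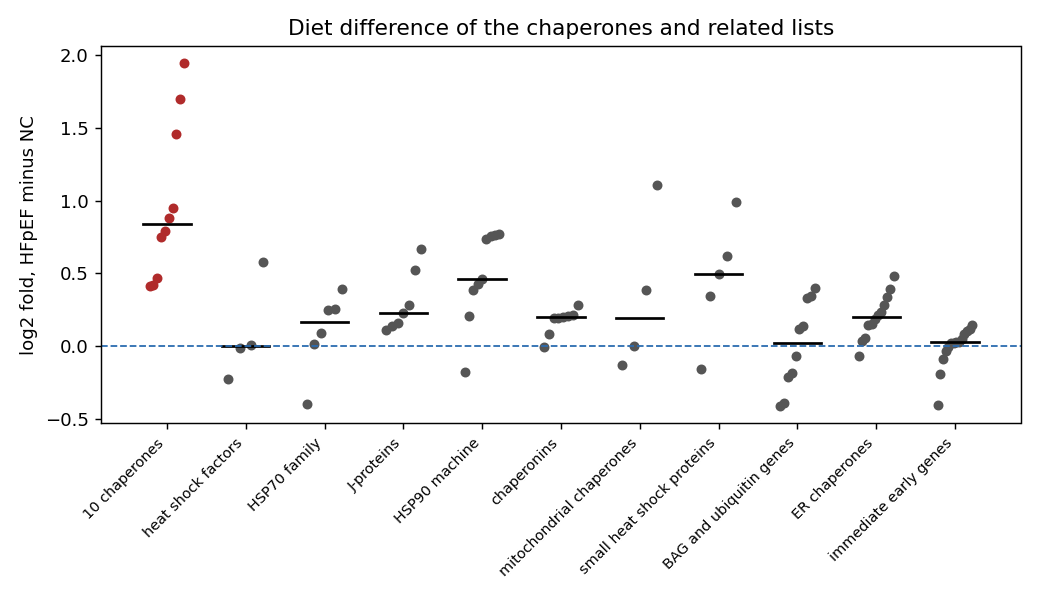
Log2 fold of HFpEF minus NC (vertical axis) for the 10 chaperones (red, chosen by this difference) and for the genes of 10 related lists (grey), 1 point per gene, with the median of each list as a black bar and that of all 13735 genes as a dashed line. The HSP90 machine has a median of 0.46 and the immediate early genes one of 0.02.

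The fitted diet difference had the same direction in each cell class with enough cells to read. The 10 genes were chosen on sums over all classes together, and 64.05% of cells were capillary ECs. The choice thus largely set this direction, which is given as a description without a test. Hspa1a stood at 2786 and 1718 CPM in NC and 5682 and 6603 in HFpEF in capillary ECs, and at 2828 and 1695 against 5552 and 7163 in artery ECs. In vein ECs it stood at 2890 and 1418 against 5195 and 5593, and in mural cells (pericytes and smooth muscle) at 3843 and 2298 against 4531 and 7128. The log2 folds by class were fitted without the low-count filter. All 10 were above 0 in capillary, artery and vein ECs and in mural cells, with medians of 0.83, 0.90, 0.81 and 0.77. In vein ECs, the log2 folds of Dnajb1 and Hspb1 were 0.08 and 0.12, and the diets overlapped for both. There Dnajb1 stood at 564 and 462 CPM in NC against 543 and 565 in HFpEF. Hspb1 stood at 2545 and 1910 against 2446 and 2525. Whether artery and capillary ECs differed in the diet difference was tested as an interaction with edgeR's quasi-likelihood test. None of the 10 passed, where 3 of 11266 genes did (0.0266%, Cox4i2, Fbln5 and Col8a1, named after their values were seen), with 591 at an unadjusted p under 0.05, and DESeq2 called none of the 10. The difference for Hspa1a was 0.04 with a 95% interval of -0.11 to 0.18, and for Dnajb4, the least certain, 0.16 with an interval of -0.26 to 0.58.

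Classes with few cells are given as values. Fibroblasts (95 cells) held Hspa1a at 930 and 221 CPM in NC and 1519 and 1173 in HFpEF, below the capillary ECs of the same library in all 4. Lymphatic ECs (75 cells) held 1228 and 629 against 2279 and 3615, and proliferating ECs (105 cells) 1153 and 321 against 3408 and 3314. T cells (47 cells) held 456 and 211 against 2345 and 2161, from 9, 11, 39 and 179 UMIs. In these 4 classes both HFpEF libraries were above both NC libraries, and Hspa1a lay below its level in capillary ECs of the same library. In macrophages (41 cells) and B cells (57 cells) the diets overlapped, and NC library 1 held a single cell of each.

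Hspb1 followed another order. Macrophages held it at 59 to 173 CPM and T cells at 0 to 253, against 2027 to 3313 in capillary ECs. Over all libraries there were 24.1 UMIs of Hspa1a per UMI of Hspb1 in macrophages and 9.15 in T cells, against 1.68 in capillary ECs. The pooled macrophage ratio includes the single macrophage of NC library 1, with 63 UMIs of Hspa1a and 1 of Hspb1. The part of free RNA in these values was not tested.

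**Figure D4:**
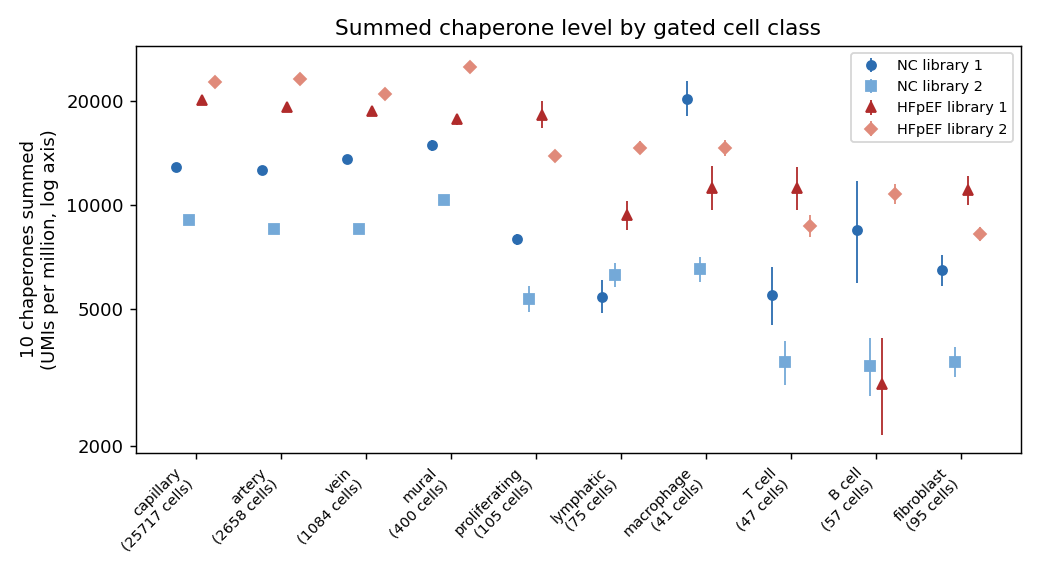
Summed level of the 10 chaperones (CPM, log axis) by gated cell class and library, with exact 95% Poisson intervals that cover counting error only. Capillary, artery and vein ECs and mural cells lie close together within a library. Fibroblasts, lymphatic and proliferating ECs, T cells and B cells lie below the capillary ECs of each library. Across libraries, fibroblasts range from 3495 to 11005 and capillary ECs from 9034 to 22734.

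Between EC classes, levels were compared within libraries by edgeR's quasi-likelihood test with the library as a block, a contrast the choice of genes did not use. Against capillary ECs, artery ECs had lower Hspb1 and Dnajb1 and higher Hsph1 and Dnajb4, so 4 of the 10 chaperones passed, where 31.4% of 11172 genes did. Hspb1 was at 2650 and 2027 CPM in NC and 3313 and 2751 in HFpEF in capillary ECs, and at 2197 and 1575 against 2661 and 2402 in artery ECs, lower in artery ECs in 4 of 4 libraries. Its log2 fold was -0.36 ± 0.05 (edgeR adjusted p = 6.05e-06), and that of Dnajb1 was -0.33 ± 0.06 (4.08e-05), also lower in 4 of 4. Hsph1 was higher in 4 of 4 libraries by 0.26 ± 0.08 (0.0148) and Dnajb4 in 3 of 4 by 0.28 ± 0.10 (0.0297). Dnajb4 passed in 6 of 9 settings tried and Hsph1 in 7, whereas Hspb1 and Dnajb1 passed in all 9. Hspa1a, with -0.05 ± 0.05, and Hspa8, with 0.00 ± 0.04, did not pass.

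Vein ECs differed from capillary ECs in 5 of the 10, where 22.5% of the same genes passed. Hsph1 was higher by 0.67 ± 0.09 (edgeR adjusted p = 1.68e-06) and Dnajb4 by 0.40 ± 0.12 (0.0114), each in 4 of 4 libraries. Hspa1a was lower by a log2 fold of -0.24 ± 0.05 (edgeR adjusted p = 6.22e-04), in 3 of 4 libraries, Hspb1 of -0.26 ± 0.06 (9.49e-04), in 4 of 4, and Hsp90aa1 of -0.14 ± 0.04 (0.0161), in 3 of 4. Hsp90aa1 no longer passed when counts were scaled by library size alone, where Bag3 passed as higher (0.23, edgeR adjusted p = 0.0208). Without HFpEF library 2, 3 of the 10 passed. Artery and vein ECs were deeper than capillary ECs, with medians of 4395 and 5696 against 3487 UMIs in NC library 1 and 2920 and 3689 against 1534 in HFpEF library 2, and the part of depth in these differences was not tested.

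Mural cells differed from ECs most in Dnajb4, which was 1.44 ± 0.17 higher on the log2 scale (edgeR adjusted p = 2.02e-12, 4 of 4 libraries), and in Hspd1, which was 0.78 ± 0.13 higher (3.44e-07, 4 of 4). Hsph1 was higher by 0.48 ± 0.16 (edgeR adjusted p = 0.0104) in 3 of 4 libraries. Bag3, Hspb1 and Dnajb1 were lower, by log2 folds of -0.52 ± 0.15, -0.38 ± 0.10 and -0.30 ± 0.12, in 4, 3 and 3 of 4 libraries (edgeR adjusted p = 0.00279, 0.00172 and 0.0372). These 6 of 10 stood against 38.3% of 11956 genes. With library-size scaling the median log2 fold of all genes moved from -0.09 to 0.10, and 4 of the 10 passed as higher (Hspa1b, Hsph1, Dnajb4 and Hspd1) and none as lower. Bag3, Hspb1 and Dnajb1 then had log2 folds of -0.32, -0.17 and -0.09. Without NC library 2, which held 110 of the 400 mural cells, 3 of the 10 passed. Dnajb4 and Hspd1 passed in 9 of the 9 settings tried, Hsph1, Hspb1 and Bag3 in 7 and Dnajb1 in 4. Hspa1a (-0.02 ± 0.11) and Hspa8 (-0.10 ± 0.10) did not pass. The mural cells came from a sort for EC fluorescence, and the part of free EC RNA or doublets in these values was not tested.

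**Figure D5:**
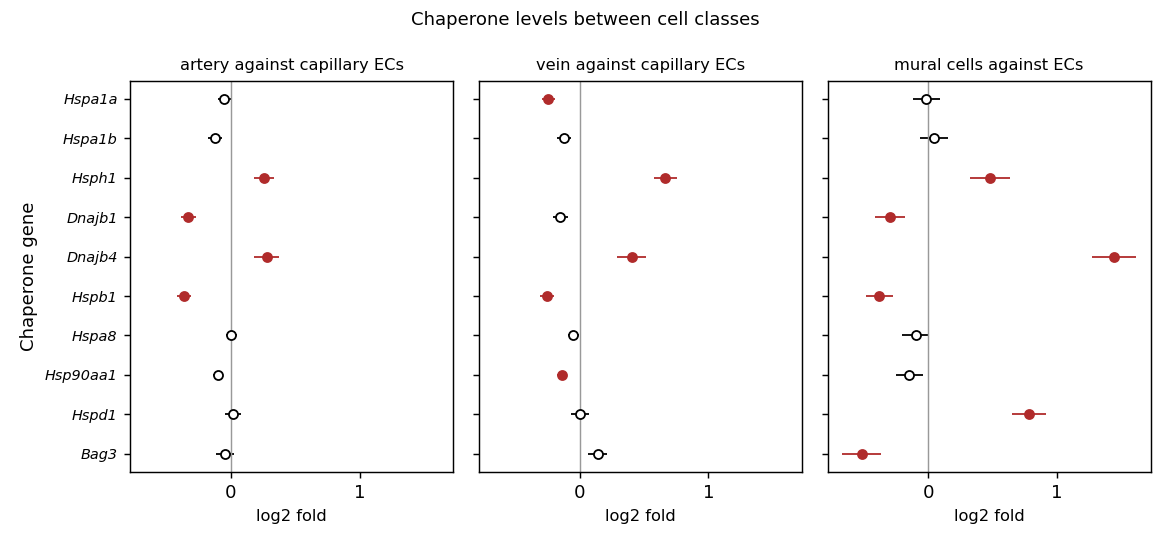
Log2 fold ± SE of each chaperone in artery against capillary ECs, vein against capillary ECs and mural cells against ECs (4 libraries each). Filled red points passed an edgeR adjusted p of 0.05 and open points did not, and Dnajb4 and Hsph1 lie to the right in all 3 panels, with Dnajb4 at 1.44 in mural cells.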

How the data were processed

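The deposited values were UMI counts per gene and cell, which the authors made with fastp and Cell Ranger 5.0.1 on mm10. The paper describes downsampling of reads between libraries for its aggregated matrix. Whether the deposited counts of each library were downsampled was not established, and their median depth differed between the diets. Here, cells with over 200 genes and under 20% mitochondrial UMIs were kept and counts summed per library or per cell class. The 10 genes and all lists were chosen with earlier results of these data known. Classes were gated by marker lists with thresholds set on the data: ECs needed 2 EC markers and 15 EC-marker UMIs per 10000, other cells 2 or 3 own markers and fewer EC UMIs. No doublet caller was run, and 1139 cells with markers of both kinds were kept out of the classes. Sums were tested with edgeR 4.0.16 (quasi-likelihood, TMM, filterByExpr, Benjamini-Hochberg over all genes) in R 4.3.3, the diet fit without and the class fits with a library block, and levels are plain counts per 1000000 UMIs. DESeq2 1.42.0 and other settings were alternatives. Named genes of a list were those called, otherwise the 2 most abundant; most alike were the 10 non-members with the highest lowest-library r over ECs thinned to 1000 UMIs. The fits were tested on simulated data. The SE of a log2 fold was its absolute size divided by the square root of the edgeR quasi-likelihood F. The dispersion behind it borrows from all genes, so the SE is not the spread of the 2 libraries of a diet alone. Python 3.11.15 was used for cells and sequences. Same-numbered libraries did not deviate together (r = 0.03 between their deviations). The values of 1 gene that these rules name are not reported here.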

Additional observations from a re-analysis of the deposited data

How the results depend on the processing

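The median log2 fold of the 10 chaperones stayed between 0.72 and 1.10 in 15 alternatives, which were cell sets, scalings, tools, the replicate block and each library left out, 2 of them (cells of 1000 to 2000 UMIs and library-size scaling) chosen after seeing the data. The number of genes called between the diets depended on the tool and filter, with 1 in the reported fit, 254 with DESeq2 and 1045 without a low-count filter. With the replicate block it was 19, none of them among the 65 chaperone-system genes. The labels give the number no meaning, and Scarb1 was higher in library 1 of both diets (105 and 107 against 43.3 and 49.8 CPM). Leaving out a library gave 2 to 11. Leaving out a library left 3 to 4 of the 10 chaperones called in artery, 3 to 7 in vein and 3 to 6 in mural comparisons, and the cause was not tested. The lowest counts came without HFpEF replicate 2 for vein and without NC replicate 2 for mural cells. The block changed no direction among the 10. The other alternatives of the class comparisons stayed within 1.5 times.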
